A study of Mus musculus with 2 samples.

Results

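The Cyp4a and Cyp4f genes followed here are 9 fatty acid hydroxylases of mouse liver, Cyp4a10, Cyp4a12a, Cyp4a12b, Cyp4a14, Cyp4a31, Cyp4a32, Cyp4f13, Cyp4f14 and Cyp4f15. They were found as the probes whose RefSeq transcript belongs to one of these symbols. All 9 had a probe, among 20652 genes with a probe, and all 9 were among the 16346 genes measured, those whose probe was well above background on at least 1 array. The members had 13 probes, each printed as 1 spot, and 13 of 13 probes were well above background on both arrays. The 6 Cyp4a genes had 10 probes and the 3 Cyp4f genes had 3.

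The experiment compared the livers of fasted male mice with those of male mice upon feeding. The fasting group was deprived of food overnight for 14 to 16 h. The feeding group is described in the labels both as mice that ate after the fast and as mice with free access to food, and the labels do not settle which. The study's methods give C57BL/6J males of about 8 to 12 weeks, with no transgene or drug named for this experiment. RNA of 3 mice was pooled in each group and hybridised to 1 array of 1 colour, so the spread between mice cannot be seen and the differences come without standard errors or p-values. Each value below is a processed signal, the intensity of a spot after background subtraction, and each difference is feeding minus fasting on the log2 scale after quantile normalization. Genes at least 2-fold apart are counted as higher or lower.

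The members belong to the CYP4 family of cytochrome P450 enzymes, which put a hydroxyl group on the last carbon (omega) of a fatty acid or of an eicosanoid. The product is taken on by alcohol and aldehyde dehydrogenases to a dicarboxylic acid, which peroxisomes shorten. In liver this route runs beside mitochondrial beta-oxidation, and the Cyp4a genes are known as targets of the nuclear receptor PPARα, which responds to fatty acids released in fasting. Cyp4a12a and Cyp4a12b are also known as male-biased genes. The Cyp4f enzymes are known for the inactivation of leukotriene B4 and for the hydroxylation of vitamin E and vitamin K side chains.

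None of the 9 members was 2-fold apart between the arrays. The counts were 0 higher and 0 lower, against 3.29% higher and 4.62% lower over all genes measured, 7.91% in all. The median difference of the members was -0.01, and the median of all genes was 0.00. Cyp4f14 (0.52) and Cyp4f15 (-0.75) stood furthest from 0, in opposite directions, and the 6 Cyp4a genes lay between -0.26 and 0.00. Fewer cells of a type and less RNA per cell cannot be told apart in pooled liver RNA. Several Cyp4a genes are near-identical copies, above all Cyp4a10, Cyp4a31 and Cyp4a32, and Cyp4a12a with Cyp4a12b, and since probe sequences were not used here, a probe listed for one copy may also have bound the transcripts of another.

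**Figure D1:**
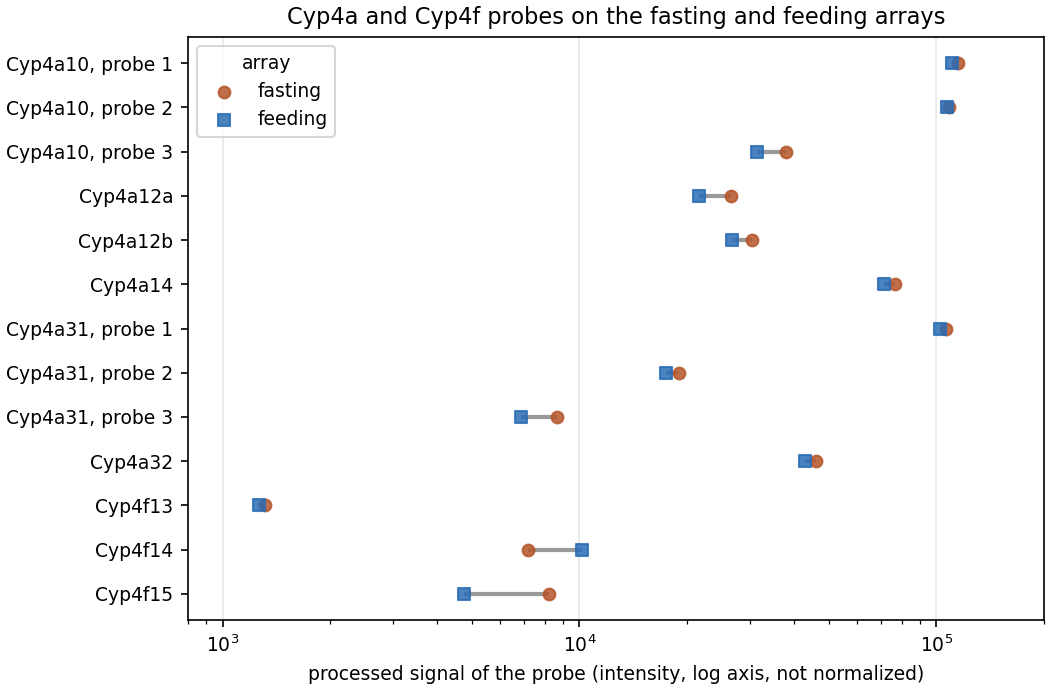
Processed signal of the 13 member probes on the fasting array (circles) and the feeding array (squares), on a log axis and before normalization; each probe is 1 spot on 1 array of pooled RNA. Cyp4f14 lies higher upon feeding (7170 and 10178), Cyp4f15 lower (8240 and 4762), and the pairs of the brightest Cyp4a probes nearly coincide.

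The start regions of 4 members could be read beside these values. The RefSeq promoter table (GRCm38.p6) was matched for Cyp4a32, Cyp4f13, Cyp4f14 and Cyp4f15; Cyp4a10, Cyp4a12a, Cyp4a12b, Cyp4a14 and Cyp4a31 had no match. They are shown because Cyp4f14 and Cyp4f15 differed in opposite directions and because Cyp4a32 is the 1 Cyp4a member with a match. Each line gives the 135 bases just before the gene's start, 5′ to 3′ on the strand of the gene, and for Cyp4f14, which has 4 starts in the table, those before the farthest upstream. Capitals mark ATTGG, which is the CCAAT box read on the other strand. In Cyp4a32 they also mark the letters GTTAAT, any base, ATT, a match to part of the site of the liver factor HNF1.

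Cyp4a32 (chr4:115600803-115600937, plus strand): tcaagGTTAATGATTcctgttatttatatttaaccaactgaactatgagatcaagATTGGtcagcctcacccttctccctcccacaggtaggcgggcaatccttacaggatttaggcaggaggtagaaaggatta

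Cyp4f13 (chr17:32947362-32947496, minus strand): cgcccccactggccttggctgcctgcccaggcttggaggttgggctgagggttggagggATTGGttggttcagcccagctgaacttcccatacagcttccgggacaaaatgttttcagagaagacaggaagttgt

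Cyp4f14 (chr17:32917357-32917491, minus strand): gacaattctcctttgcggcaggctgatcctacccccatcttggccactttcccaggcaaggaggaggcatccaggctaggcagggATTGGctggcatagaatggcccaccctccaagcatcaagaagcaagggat

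Cyp4f15 (chr17:32685524-32685658, plus strand): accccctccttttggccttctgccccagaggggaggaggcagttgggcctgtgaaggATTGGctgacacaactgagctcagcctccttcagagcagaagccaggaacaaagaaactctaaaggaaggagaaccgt

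The CCAAT box lay at positions -80 to -76 of Cyp4a32, -76 to -72 of Cyp4f13, -50 to -46 of Cyp4f14 and -78 to -74 of Cyp4f15, counted from the start. In windows of 250 bases before the start, searched on both strands, it was in 4 of 4 member windows and in 33.8% of 32851 windows in the table. Among the other Cyp4 genes it was in windows of Cyp4f16, Cyp4f18 and Cyp4f37. It was thus present both in Cyp4f14, which was higher, and in Cyp4f15, which was lower. The HNF1 letters were in Cyp4a32 (-130 to -121), in 0.371% of all windows, and among the other Cyp4 genes in those of Cyp4a30b and Cyp4f40. The letters of these motifs were chosen after the windows had been read. The element of PPARα with its partner RXR is 2 copies of AGGTCA in the same direction with 1 base between them. It was in 0 of 4 member windows and in 11 of 32851 (0.0335%). A single AGGTCA, which this element contains, was in 0 of 4 and 14.0%, and among the other Cyp4 genes in Cyp4a29. These letters are simply not in the 4 member windows, and other parts of the genes were not read. TTCNNNGAA, the element of STAT5, was in Cyp4f13, in 7.02% of all windows, and among the other Cyp4 genes in Cyp4b1. TATAAA was in Cyp4a32, on the strand opposite to the gene, and in 12.4% of all windows. No searched motif overlapped another in a member window.

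Cyp4a10 and Cyp4a14 are the Cyp4a genes best known for their response to PPARα activators, and both encode omega-hydroxylases of medium and long chain fatty acids. The 3 probes of Cyp4a10 are A_55_P2011111, A_51_P254895 and A_55_P2092030. The brightest, A_55_P2011111, read 114845 upon fasting and 110537 upon feeding, a normalized difference of 0.00. A_51_P254895 read 108649 and 107458 (0.03), and A_55_P2092030 read 37922 and 31472 (-0.22). After quantile normalization the pair of bright probes of Cyp4a10 was thus within 0.03 of no difference, and the other, less bright probe was lower upon feeding. Cyp4a14, on the single probe A_51_P238576, read 76761 upon fasting and 71210 upon feeding, a difference of -0.01.

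Cyp4a31 and Cyp4a32 are close copies of Cyp4a10. For Cyp4a31, probe A_55_P2050628 read 106610 upon fasting and 102357 upon feeding (-0.01). Probe A_55_P1952399 read 19030 and 17471 (-0.11), and probe A_55_P2024033 read 8656 and 6855 (-0.31). For Cyp4a10 and Cyp4a31 alike, the dimmest probe gave the lowest difference, an order that scaling of whole arrays does not change, and that of Cyp4a31 was 1.24-fold lower upon feeding. Cyp4a32 (probe A_55_P1987620) read 46008 upon fasting and 42752 upon feeding, a difference of -0.07.

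Cyp4a12a and Cyp4a12b encode hydroxylases that make 20-HETE from arachidonic acid. Cyp4a12a (probe A_55_P2043083) read 26599 upon fasting and 21618 upon feeding. Its normalized difference of -0.26, 1.20-fold lower upon feeding, was the lowest of the 6 Cyp4a genes, and 24.3% of all genes measured had a lower one. Cyp4a12b (probe A_55_P2152607) read 30503 and 26704, a difference of -0.15 or 1.11-fold.

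Of all 16346 genes measured, 7383 had a normalized difference below 0 and 7802 had one above it. Over the Cyp4a genes, 5 of 6 genes and 8 of 10 probes, some of the same gene, were below 0, with a median of -0.04 over the genes. These signs depend on the scaling: with each array scaled by its median, which moved the median of all genes to 0.09, Cyp4a10 (0.18), Cyp4a12b (0.04), Cyp4a14 (0.13), Cyp4a31 (0.18) and Cyp4a32 (0.13) were above 0, and Cyp4a12a (-0.06) was the 1 Cyp4a gene below it. Scaled by the 75th percentile, Cyp4a10 (0.05) and Cyp4a31 (0.05) were above 0, Cyp4a14 (0.0012) and Cyp4a32 (0.0037) were barely above it, and Cyp4a12a (-0.19) and Cyp4a12b (-0.08) were below. The Cyp4a probes were also read by their signal. After quantile normalization, the 4 with a signal above 70000 on both arrays lay between -0.01 and 0.03, and the other 6 between -0.31 and -0.07. Before normalization these ranges were -0.11 to -0.02 and -0.34 to -0.11 and met at Cyp4a14 and Cyp4a32. With median scaling Cyp4a10 and Cyp4a31 (0.18 each) lay furthest from 0 among the Cyp4a genes. The bright Cyp4a14 and the less bright Cyp4a32 (0.13 each) came next. Over the whole array, bright genes had a narrower range of differences. Genes with a mean normalized signal of at least 70000 numbered 106, of which 1 (0.943%) was 2-fold apart, with an SD of the difference of 0.18. Over the 1226 genes of at least 10000, the SD was 0.50 and 6.28% were 2-fold apart, and over the 6156 genes of at least 1000 it was 0.55 with 5.9% 2-fold apart. No spot was flagged as saturated by the scanner on either array, the highest signal of a non-control spot being 185908 against a saturation value of 778212. The part of signal strength in the differences of the Cyp4a probes was not tested.

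**Figure D2:**
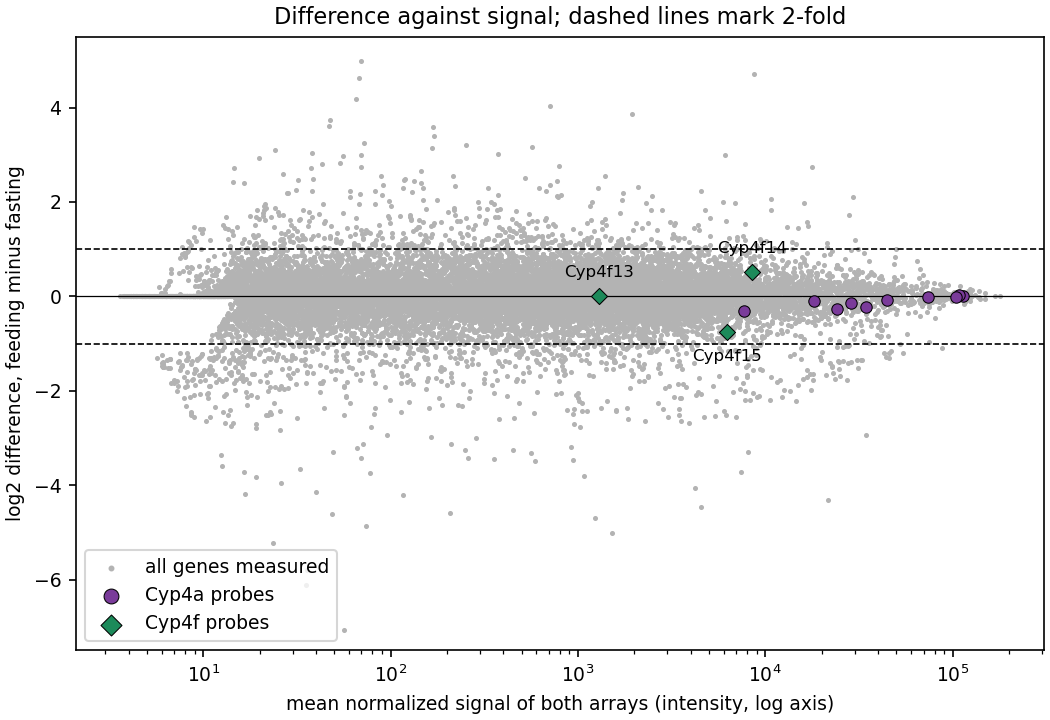
Difference between feeding and fasting (log2, normalized) against the mean normalized signal of both arrays (log axis) for all 16346 genes measured (grey) and for the 10 Cyp4a probes (circles) and 3 Cyp4f probes (diamonds); genes with a lower bound of 0 lie on the zero line. The 4 Cyp4a probes above 70000 lie between -0.01 and 0.03 after quantile normalization, where the grey points narrow as well, and Cyp4f14 and Cyp4f15 lie apart on opposite sides of 0.

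How far 2 spots of the same probe differ was taken from 133 probes that were printed at least 8 times and had a signal of at least 1000. A difference between 2 single spots of such a probe had an SD of 0.09 on the log2 scale. The differences of Cyp4f14, Cyp4f15, Cyp4a12a, Cyp4a12b and of the less bright probes of Cyp4a10 and Cyp4a31 were larger than this SD after quantile normalization, while those of Cyp4a14, Cyp4a32, Cyp4f13 and the bright probes of Cyp4a10 and Cyp4a31 were smaller. For the Cyp4a genes and Cyp4f13 this depends on the scaling: with median scaling Cyp4a10, Cyp4a14, Cyp4a31, Cyp4a32 and Cyp4f13 (0.18) exceeded the SD and Cyp4a12a and Cyp4a12b did not. Cyp4f14 and Cyp4f15 exceeded it under every alternative. This SD holds no spread between mice, pools, labellings or arrays. Signals of different probes also depend on the sequence of the probe, so the members are not ranked by level.

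The 3 Cyp4f genes each had 1 probe and gave 3 different pictures. Cyp4f14 encodes a leukotriene B4 omega-hydroxylase that also acts on vitamin E. On probe A_51_P452768 it read 7170 upon fasting and 10178 upon feeding. It was 1.43-fold higher upon feeding (0.52), and 12.4% of the genes measured had a higher difference. The fed level was above the fasted one in every alternative, from 0.40 with another background correction to 0.74 with median scaling.

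Cyp4f15 encodes a related hydroxylase of long chain fatty acids and leukotrienes. On probe A_51_P136303 it read 8240 upon fasting and 4762 upon feeding. It was 1.68-fold lower upon feeding (-0.75), and 7.43% of the genes measured had a lower difference. Its difference lay between -0.75 and -0.56 over the alternatives, and at a threshold of 1.5-fold it was the 1 member counted as lower, where 10.6% of all genes were. No member was counted as higher at 1.5-fold, where 10.5% of all genes were. These calls depend on the scaling, since Cyp4f14 was past 1.5-fold with the 75th percentile (0.61) and with median scaling (0.74), and Cyp4f15 (-0.56) was no longer past it with the latter. Cyp4f13, another hydroxylase of this family, read 1314 upon fasting and 1268 upon feeding on probe A_51_P210603 (0.01, and 0.18 with median scaling).

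**Figure D3:**
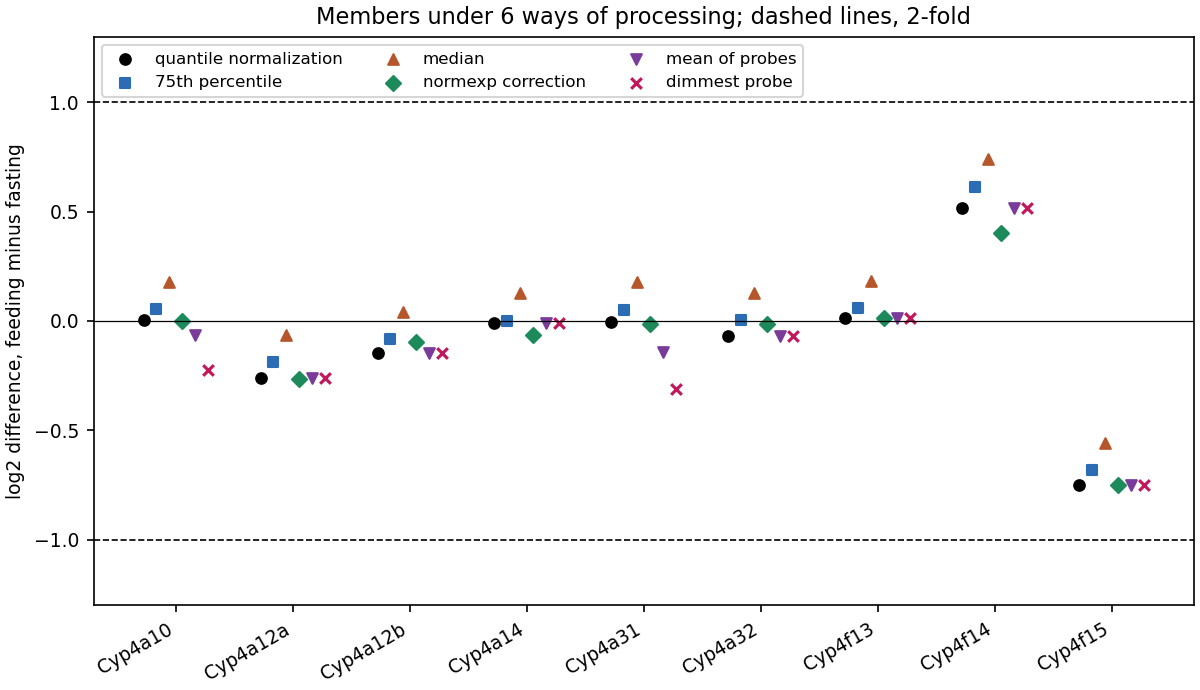
Difference between feeding and fasting (log2) of the 9 members under 6 ways of processing; each point is 1 value with no replicate, and dashed lines mark 2-fold. No point passes 2-fold, Cyp4f14 stays between 0.40 and 0.74 and Cyp4f15 between -0.75 and -0.56, while several Cyp4a genes change sign under median scaling.

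Among the other Cyp4 genes of the array, 11 in all, 9 were measured, with 1 at least 2-fold higher and none lower. Over all genes measured, 3.29% were higher and 4.62% lower. The median of the 9 was 0.00, which rests on lower bounds of 0 for Cyp4a30b, Cyp4f37 and Cyp4f40, each seen on 1 array alone. Over probes well above background on both arrays the median was -0.16. Cyp4x1 and Cyp4a29 were not well above background on either array. Cyp4f39, an omega-hydroxylase of ultra long chain fatty acids known from skin, read 24.8 upon fasting and 208 upon feeding, 9.53-fold higher after normalization (3.25). Its fasted signal was near the lower end of what the array measures, with local backgrounds of 30 and 23 at its spots. The lowest difference in this group was -0.82.

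A cytochrome P450 needs electrons, which come from NADPH through the reductase Por, or by way of cytochrome b5. None of the 5 electron donors was 2-fold apart, beside 7.91% of all genes, and their median was 0.07. Por read 45992 upon fasting and 29216 upon feeding, 1.54-fold lower (-0.62), the lowest of the 5 on the brightest probe of each gene. A less bright probe of another electron donor gave -0.91. Por thus stood nearer to Cyp4f15 than to any Cyp4a gene in its difference.

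Of the 10 alcohol and aldehyde dehydrogenases that can act on the hydroxylated product, 1 was at least 2-fold lower and none higher, with a median of -0.02. Over all genes measured, 4.62% were lower and 3.29% higher. Aldh3a2, the fatty aldehyde dehydrogenase of the endoplasmic reticulum, read 2201 upon fasting and 795 upon feeding, 2.64-fold lower (-1.40). The other dehydrogenases lay within 2-fold, up to 0.63.

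The peroxisomal list holds 26 genes for the uptake and shortening of dicarboxylic and other long chain acids. Of these, 22 had a difference below 0 and 4 above, where 7383 of all 16346 genes were below 0 and 7802 above. The median of the list was -0.37, but 1 gene was at least 2-fold lower and 1 higher. Over all genes measured, 4.62% were 2-fold lower and 3.29% higher. The counts of the list were 2 lower and 0 higher with the normexp correction, and 3 lower and 0 higher with the dimmest probe of each gene. Decr2, the peroxisomal dienoyl-CoA reductase, read 8875 upon fasting and 2137 upon feeding, 4.06-fold lower (-2.02). Acot3, a peroxisomal acyl-CoA thioesterase, read 527 and 1126 (2.30-fold higher), while its other probe gave -0.45, so the probes disagree. Ehhadh, the bifunctional enzyme of the cycle and an established PPARα target, read 51704 and 32408, 1.53-fold lower upon feeding (-0.61). With median scaling the median of this list was -0.22.

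A list of 40 other PPARα targets, all measured, was read beside the Cyp4a genes. Of all 16346 genes measured, 7383 had a difference below 0, 4.62% were at least 2-fold lower and 3.29% higher. Of these targets, 14 were at least 2-fold lower and 1 higher, their median was -0.54, and 35 had a difference below 0. With median scaling 7 were 2-fold lower and the median was -0.33. With the normexp correction 11 were 2-fold lower and the median was -0.47. The furthest were Angptl4, a secreted inhibitor of lipoprotein lipase (25700 upon fasting and 2551 upon feeding, -3.29), and Pdk4, a kinase that shuts off pyruvate dehydrogenase (4202 and 783, -2.36). Next came Slc22a5, the carnitine transporter (1328 and 421, -1.55), and Apoa5, an apolipoprotein of triglyceride-rich particles (4600 and 1545, -1.53). These 4 were named for the largest differences of the list, and other genes of it lay in the range of the Cyp4a genes, among them Acadvl (-0.10), Hadhb (-0.15) and Acadl (-0.24) of mitochondrial beta-oxidation, chosen after their values were seen. Just short of 2-fold lay the carnitine carrier Slc25a20 (3565 upon fasting and 1745 upon feeding), which was chosen after its values were seen. Whether the Cyp4a genes differ from the other targets was not tested, as 1 array per group gives no test.

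**Figure D4:**
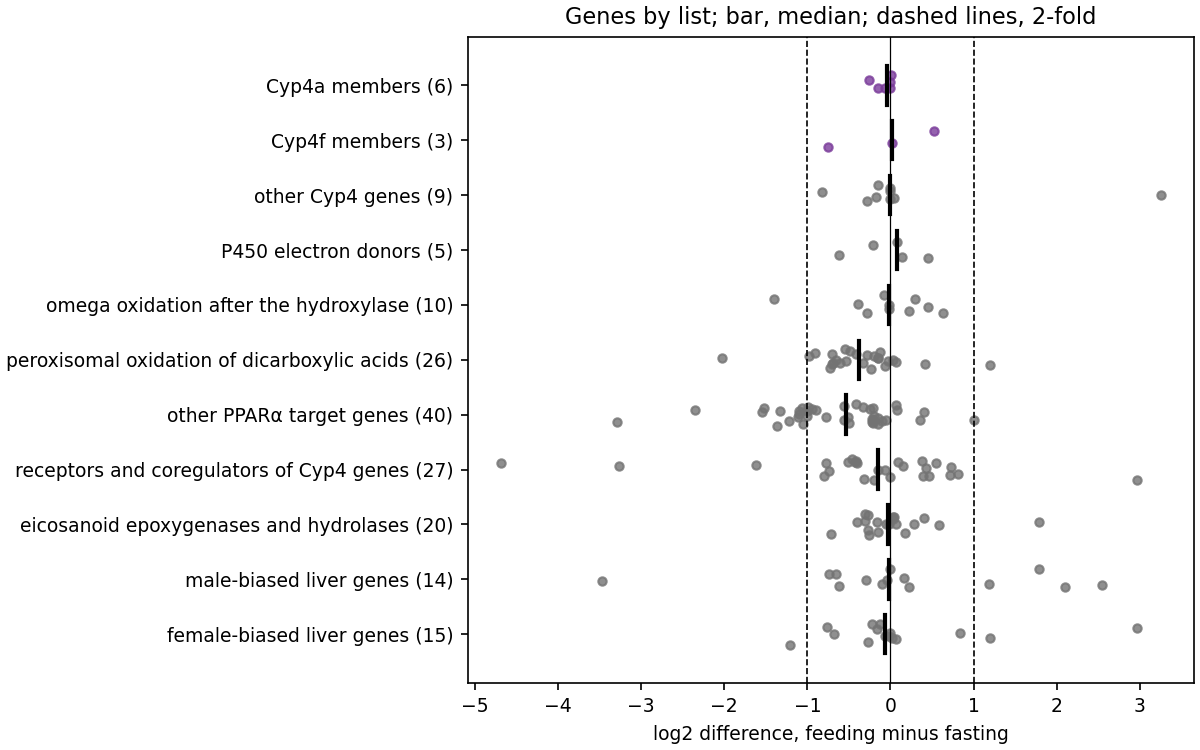
Difference between feeding and fasting (log2, normalized) of each measured gene in the members' families and in 9 lists of related genes; each point is a gene, the bar is the median of its list, the number after a list's name is the genes measured, and dashed lines mark 2-fold. The 6 Cyp4a genes lie within -0.26 to 0.00 around a median of -0.04. The 40 other PPARα targets, a larger list, spread from -3.29 to 1.01 around a median of -0.54. The peroxisomal list, which holds the PPARα target Ehhadh (-0.61), has a median of -0.37.

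Among 27 receptors and coregulators that act on Cyp4 genes, 3 were at least 2-fold lower and 1 higher, with a median of -0.14. The shares over all genes measured were 4.62% lower and 3.29% higher. Ppara itself read 9971 upon fasting and 5750 upon feeding, 1.71-fold lower (-0.78), and its 3 probes lay between -0.78 and -0.56. Ppargc1a, the coactivator PGC-1α, read 1434 and 135 (-3.26), and its relative Ppargc1b read 133 and 37.3 (-1.62). Lpin1, which works with both as a coactivator and is also a phosphatidate phosphatase, read 6283 and 227 (-4.69). These 3 coactivators were thus at least 2-fold lower upon feeding, and the receptor was lower by less than that. The fed signal of Ppargc1b was near the local background of 25. With the normexp correction 2 genes of this list were 2-fold lower and 0 higher, so not all 3 calls of the coactivators held. Cux2, a repressor known from female liver, read 21.2 and 145 (2.96), and its fasted signal was close to the background.

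The members share substrates with other enzymes of eicosanoid metabolism, the epoxygenases and hydrolases. Of 23 in the list, 20 were measured, 1 was at least 2-fold higher and none lower, and the median was -0.03. Cyp2u1, another fatty acid hydroxylase, read 117 upon fasting and 357 upon feeding (1.79). Ephx2, the soluble epoxide hydrolase, read 39025 and 36632 (-0.05). The share past 2-fold, 1 of 20, can be read against the 7.91% of all genes.

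Because Cyp4a12a and Cyp4a12b are known as male-biased genes, other genes biased by sex in liver were read beside them. Of 14 male-biased genes, 4 were higher by 2-fold or more and 1 was lower, with a median of -0.02. The shares over all genes measured were 3.29% higher and 4.62% lower. Elovl3, a fatty acid elongase, read 3173 upon fasting and 267 upon feeding (-3.47), and Hsd3b5, a steroid dehydrogenase, read 96.7 and 495 (2.54). Moxd1, a monooxygenase relative, read 31.7 and 118 (2.10), and its fasted signal was close to the local background of 34. With the normexp correction 3 genes of this list were 2-fold higher and 1 lower. Cyp2u1 was in this list too. Of 15 female-biased genes measured, 2 were higher and 1 lower, beside 3.29% and 4.62% of all genes, with a median of -0.06. The 1 lower was Fmo2, a flavin monooxygenase (205 and 76.4, -1.21), and the 2 higher were Cux2 and Acot3; with the normexp correction no gene of this list was 2-fold apart in either direction. Neither list moved one way. The named genes were taken for differences past 2-fold, so their distance from the Cyp4a12 genes was set by that choice.

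The arrays came from the same slide and the same scan, and 63.1% of spots upon fasting and 72.3% upon feeding were well above background. Markers fitted the liver label: 12 of 12 hepatocyte markers were measured, and their summed normalized signal was 1039330 upon fasting and 818916 upon feeding. Of them Pck1 (-2.95) and G6pc (-1.77), which belong to glucose production, were 2-fold lower. The largest falls in the sum were those of Pck1 (96237 and 12469), Tat (104878 and 53470) and G6pc (50168 and 14727). The median difference of the 12 hepatocyte markers was -0.07, with 10 below 0 and 2 above. Summed signals of other liver cells were lower upon feeding for Kupffer cells and macrophages (77237 and 58744, 6 of 7 markers measured), endothelial cells (35926 and 27631, 6 of 6) and stellate cells and fibroblasts (54594 and 39270, 6 of 6), and stood at 6749 and 6258 for leukocytes (7 of 7) and 2785 and 3402 for cholangiocytes (6 of 6). The higher cholangiocyte sum rests on Sox9 (377 and 1625, 2.11), while Spp1 (-0.46), Krt19 (-0.31) and Cftr (-0.22) were below 0. Among the leukocyte markers S100a8 (0.61) and S100a9 (0.77) were above 0, and Ptprc (-0.49), Cd3e (-0.37) and Nkg7 (-0.40) were below. Kidney, the other main site of Cyp4a expression, gave 264 and 240 with Slc12a1 and Kap not well above background. Pancreas gave 459 and 370 with Pnlip not well above background, adipocytes 147 and 256 with Adipoq and Lep not well above background, and skeletal muscle 30.6 and 39.3 with Myh4 and Ckm not well above it. The part of these shifts in the members' differences was not tested.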

How the data were processed

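Total RNA of mouse liver, pooled from 3 mice per group, was labelled with Cy3 and hybridised to Agilent Whole Mouse Genome arrays, 1 array each for fasting and feeding. The authors deposited Feature Extraction 11.0.1.1 output, in which the intensity of each spot is given as a background-subtracted processed signal that is not normalized between arrays. The deposited value table of the series equals the mean local background in 88794 of 88794 cells (relative tolerance 1e-06), an intensity of background only, and was not used.

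After removal of control and outlier spots, spots of 1 probe were averaged on the log2 scale, followed by quantile normalization (Python 3.11.15, numpy 2.4.6, pandas 2.3.3). A further scaling by the 75th percentile subtracts 1 constant from both arrays after this step and changes no difference. Of 39402 probes, 27218 were named through RefSeq transcripts (GRCm38.p6); the arrays were annotated on an older assembly, so no gene coordinates are given beyond those of the RefSeq promoter sequences. For a gene with several probes, the brightest on average was used. Where 1 array was not well above background, a lower bound of the difference was used. Genes were called at 2-fold, the threshold of the study's methods; there is no test, and the number of arrays limits the precision. Normexp (limma 3.58.1, R 4.3.3, offset 50) was run on the median signal as an alternative. In all, 11 alternatives were computed, 10 of them planned. The procedure was tested on simulated data.

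The members, the 9 lists of related genes and the 10 marker lists were chosen with earlier results of these data known. Named were all members, at most 4 genes per list with the largest difference past 2-fold whose probes were seen on at least 1 array, and Ppara, Por, Ehhadh and Ephx2 whatever their difference; 1 further gene of this rule is not reported here. A gene in several lists is counted in each. Genes named outside this rule were some markers of cell types, other Cyp4 genes seen on fewer than 2 arrays and those said to be chosen after their values were seen.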

Additional observations from a re-analysis of the deposited data

How the results depend on the processing

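No member passed 2-fold in either direction under any of the 10 ways of processing computed for single genes. At a threshold of 1.5-fold, 1 member, Cyp4f15, was counted as lower. The median difference of the members was -0.01 with quantile normalization, 0.13 with scaling by the median and -0.15 with the dimmest probe of each gene, an alternative chosen after seeing the data. All genes past 2-fold numbered 1293, against 527 with the normexp correction, 2023 with no filter on dim probes, 3451 at a threshold of 1.5-fold and 469 at 3-fold. The split was 537 higher and 756 lower, but 717 higher and 649 lower with scaling by the median. Over all results and alternatives, 66 values moved by more than the spread of replicate spots or, for counts, by over 1.5 times, and 334 did not. Signs were followed over the alternatives for the 9 members only, none of which was called. The cause of these moves was not tested.

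No paired analysis was possible because each group had 1 array. With 1 pool per group, differences between mice, pools, labellings and arrays cannot be told apart from feeding. The dimmest values are limited by the signal over background, and probe binding among near-identical Cyp4a copies was not analysed here. The normexp correction used the median signal in place of the mean signal.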
